A study of Mus musculus with 10 samples.

Results

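Naive lymphocytes enter and leave lymphoid tissue through a small set of receptors, and 9 genes of that system are described here in the aorta of ApoE-deficient mice with and without IL-17. They are the receptor genes Ccr7, Cxcr5, S1pr1 and Il7r, the chemokine genes Ccl19, Cxcl13 and Cxcl12, and the transcription factor genes Lef1 and Tcf7. Each was found by its gene symbol among the probe sets that the platform annotation gives a single symbol. Of the 9 genes, 7 could be measured in this way, among 22180 genes in all. Tcf7 is named for 0 probe sets in the annotation used here, and the 13 probe sets that list Ccl19 each list other symbols as well. Tcf7 and Ccl19 therefore have no value here, and each of the other 7 genes has 1 probe set.

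Whole aortas of 10 male mice were profiled on Affymetrix Mouse Gene 2.0 ST arrays, 1 array per mouse. All mice lacked ApoE, the apolipoprotein that clears lipoprotein remnants from plasma, on a C57BL/6 background, were put on a high fat diet at an age of 8 weeks, and were killed after 3 weeks on it, aged 11 weeks. For 1 group of 5, the ApoE knockout, the labels name no second deletion. In the second group of 5, the double knockout, mice also lacked IL-17, after IL-17-deficient mice had been bred into the ApoE knockout, and the labels do not say whether the groups were littermates. The protocols deposited with the ApoE knockout samples list wild-type and ApoE/caspase-1 deficient animals and do not mention IL-17, so they describe another set of mice than the text of the double knockout samples. The sources used here give no batch or scan date. If the groups were run separately, batch and genotype cannot be told apart.

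CCR7 on naive T cells, B cells and mature dendritic cells binds the chemokines CCL19 and CCL21 and brings these cells into the T cell zone of lymph nodes. CXCR5 answers CXCL13 and brings B cells and follicular helper T cells into follicles, CXCL12 retains CXCR4-bearing leukocytes in bone marrow and other tissue, and the sphingosine-1-phosphate receptor S1PR1 lets lymphocytes leave lymphoid organs. IL7R carries the survival signal of IL-7 to naive and memory T cells, and LEF1 and TCF1 (the product of Tcf7) are transcription factors of developing and naive T cells. In atherosclerotic mice, lymphocytes also gather in the adventitia of the aorta, where lymphoid chemokines have been described.

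The sequences just upstream of 4 measured members are shown, and their use in the aorta was not tested. The sequences belong to Lef1, which was lower in the double knockout, and to 3 members that did not pass the test. They are the 250 bases before the first listed start of each gene in RefSeq, build GRCm38.p6, written 5′ to 3′ in the direction of the gene. Ccr7, Cxcr5 and S1pr1 are not in the table of promoters used. Capitals mark matches, on either strand, to any of 5 short motifs: the TATA box (TATAAA), the GC box (GGGCGG), the ETS core (AGGAAG), the RUNX core (TGTGGT) and the TCF/LEF core (CTTTGA).
Lef1 (chr3:131110047-131110296, forward strand): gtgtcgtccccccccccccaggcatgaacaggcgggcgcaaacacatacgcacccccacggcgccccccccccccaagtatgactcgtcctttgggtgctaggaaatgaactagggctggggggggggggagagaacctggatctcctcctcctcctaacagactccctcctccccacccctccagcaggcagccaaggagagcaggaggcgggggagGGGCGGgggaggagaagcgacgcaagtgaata
Il7r (chr15:9529877-9530126, reverse strand): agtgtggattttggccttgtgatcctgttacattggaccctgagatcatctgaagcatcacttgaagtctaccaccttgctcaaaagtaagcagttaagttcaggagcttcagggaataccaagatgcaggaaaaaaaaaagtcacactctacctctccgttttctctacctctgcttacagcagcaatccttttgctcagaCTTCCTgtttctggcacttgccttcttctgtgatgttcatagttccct
Cxcl13 (chr5:95956689-95956938, forward strand): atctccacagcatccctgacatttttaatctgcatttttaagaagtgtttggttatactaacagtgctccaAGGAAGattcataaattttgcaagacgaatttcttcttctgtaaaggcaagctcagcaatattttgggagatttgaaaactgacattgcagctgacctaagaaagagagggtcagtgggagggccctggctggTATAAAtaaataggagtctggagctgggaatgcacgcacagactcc
Cxcl12 (chr6:117168285-117168534, forward strand): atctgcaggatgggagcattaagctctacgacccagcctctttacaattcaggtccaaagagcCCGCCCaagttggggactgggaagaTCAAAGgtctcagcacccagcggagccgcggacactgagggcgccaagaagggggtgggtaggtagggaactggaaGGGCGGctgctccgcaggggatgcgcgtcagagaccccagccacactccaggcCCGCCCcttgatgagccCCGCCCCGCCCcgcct

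The windows of Lef1 and Cxcl12 were rich in G and C (66.4% and 64.4%), and those of Il7r and Cxcl13 were not (44.0% and 42.0%), where the median of the windows of 27025 genes was 52.0%. Lef1 had a single GC box, which began 32 bases before the start. Cxcl12 had 5 GC boxes, beginning 187, 86, 33, 16 and 11 bases before the start, of which the last pair share a base. The GC box at 86 is forward and the others are in reverse, as is a TCF/LEF core at 162. Cxcl13 had a TATA box at 46 and an ETS core at 179, and Il7r had an ETS core in reverse at 48. Among all windows of this length, a GC box occurred in 33.0%, an ETS core in 29.2%, a TATA box in 13%, a TCF/LEF core in 14.1% and a RUNX core in 14.2%. A match is a description of these letters only, and the RUNX core has no match in these 4 windows.

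Values are on a log2 scale and differences are double knockout minus ApoE knockout throughout. Il17a and Apoe do not check the labels, because the position of their probe sets relative to the deleted sequence is not given: Il17a was 4.41 ± 0.14 and 4.66 ± 0.17 (SD, n = 5 per group), and Apoe was higher by 0.67 in the double knockout (limma adjusted p = 0.0011). Dim probe sets ran higher in the double knockout, with array lower quartiles of 4.72 to 4.83 against 4.49 to 4.53. All 7 members had means above 5.799. This is the receptor gene level, the 95th percentile over 1432 genes for smell, pheromone and taste receptors, used here as a guide to background. Smooth muscle markers, which define the tissue, had mean levels of 10.78 to 11.33 in ApoE knockout aortas and 11.26 to 11.34 in double knockout aortas. ApoE knockout replicates 2, 3 and 4 stood apart from the other arrays in T cell genes. Their mean T cell marker levels were 8.45, 8.08 and 7.88, against 6.93 and 6.52 in replicates 1 and 5 and 6.05 to 7.04 in the double knockout. In B cell markers they did not stand apart from the rest of their group, at 7.02, 6.91 and 6.79 against 7.47 and 6.78 in replicates 1 and 5. Of 5 measured genes of immature thymocytes, Dntt, Rag2, Arpp21 and Ccr9 were higher on these 3 arrays than on any other, and Ptcra was not, at 6.47, 6.42 and 6.16 there and 6.34 to 6.61 on the others. Dntt, the terminal transferase of developing lymphocytes, read 8.76, 8.43 and 7.79 there, 5.74 and 5.10 in replicates 1 and 5 and 5.51 to 6.86 in the double knockout. Member results are therefore also given without these 3 arrays, and without 1 more, double knockout replicate 1, which was the highest of its group in Dntt, both chosen after the data were seen.

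Of the 7 measured members, 3 were lower in the double knockout aortas at a limma adjusted p of 0.05 and 0 were higher, while 4 did not pass. The members that passed were Ccr7, Cxcr5 and Lef1. Over all 22180 genes, 30.3% passed in either direction, 7.53% as lower and 22.8% as higher. Among genes with a mean above the receptor gene level, 10.9% passed as lower. The median difference of the 7 members was -0.50, beside a median of 0.10 over all genes and of 0.01 over genes above the receptor gene level. Of the members, 7 of 7 had values below 0, and the share of all genes below 0 is not given here. After quantile normalization, which moved the median of all genes to -0.02, the same 7 differences were still below 0 and 11.2% of all genes passed as lower. The groups did not overlap for 2 members, Ccr7 and Cxcr5, where 4.8% of all genes separated with the double knockout lower. Without ApoE knockout replicates 2, 3 and 4, 2 members passed in limma, Ccr7 and Cxcr5, where 1.2% of all genes passed as lower. Without 4 arrays 0 members passed, where 0.834% of all genes passed as lower. There 3 members were at an unadjusted limma p under 0.05, and the share of all genes at that looser threshold is not given here. Because these are whole tissues, fewer cells of a type and less RNA per cell cannot be told apart.

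**Figure D1:**
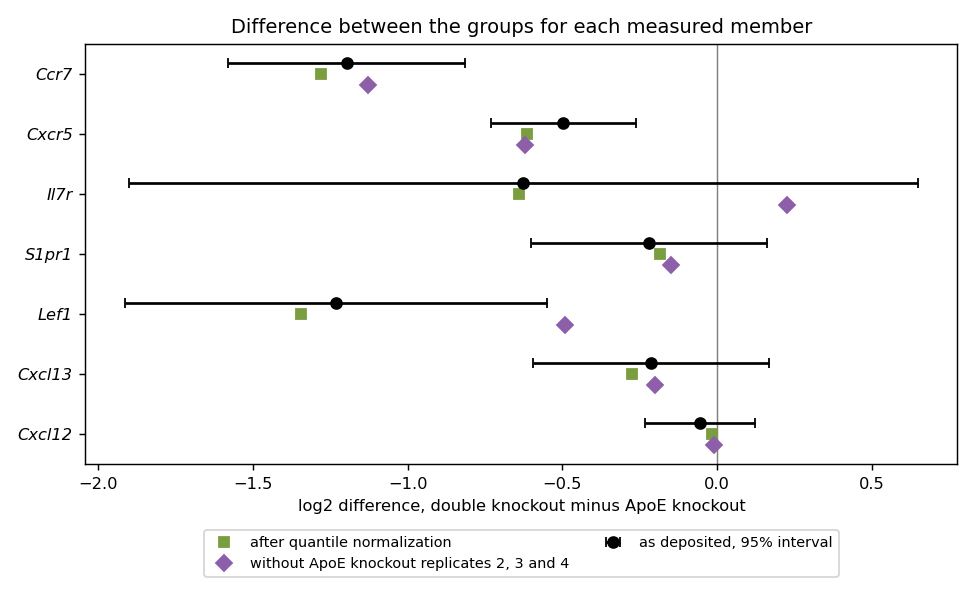
Difference between the groups (double knockout minus ApoE knockout, log2) for each measured member, with black points for the deposited values and bars for the 95% confidence interval, green squares after quantile normalization and purple diamonds without ApoE knockout replicates 2, 3 and 4. Ccr7 stays near -1.2 and Cxcr5 moves from -0.50 to -0.62, while Lef1 goes from -1.23 to -0.49 and Il7r crosses 0 when the 3 arrays are left out.

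Ccr7, the receptor for CCL19 and CCL21, separated the groups. It read 8.15, 7.91, 7.88, 7.89 and 7.39 in ApoE knockout replicates 1 to 5, and 6.93, 7.08, 6.23, 6.45 and 6.55 in double knockout replicates 1 to 5. The groups did not overlap, with all double knockout aortas lower, and replicate 1 highest and replicate 5 lowest in the ApoE knockout. Ccr7 fell by 1.20 (SE 0.17, 95% interval -1.58 to -0.81, limma adjusted p = 0.00094), or 2.29-fold. Without ApoE knockout replicates 2, 3 and 4 the difference was -1.13 (limma adjusted p = 0.048), where 1.2% of all genes passed as lower. Without double knockout replicate 1 as well it was -1.20 with an adjusted p of 0.062 in limma, with 2 arrays against 4, where 0.834% of all genes passed as lower.

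Cxcr5, the receptor for CXCL13 on B cells and follicular helper T cells, fell by less. Its values were 7.39, 6.92, 6.90, 7.09 and 6.96 in ApoE knockout aortas and 6.67, 6.54, 6.38, 6.45 and 6.73 in double knockout aortas. ApoE knockout replicate 1 was the highest array, as it was for Ccr7, and the groups did not overlap. The difference was -0.50 (SE 0.11, 95% interval -0.73 to -0.26, limma adjusted p = 0.0064), a 1.41-fold decrease. It was -0.62 without ApoE knockout replicates 2, 3 and 4 (limma adjusted p = 0.049) and -0.65 without 4 arrays (limma adjusted p = 0.066).

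Markers of several blood cell types were also lower in the double knockout, where 7.53% of all genes passed as lower and 22.8% as higher. Of 10 measured B cell markers 6 fell and 0 rose, and their mean level per array ran from 6.78 to 7.47 in ApoE knockout aortas, and from 5.91 to 6.31 in double knockout aortas. Blk and Spib, 2 of these markers, had means below the receptor gene level. Of 12 measured T cell markers 7 fell and 0 rose, and 0 had a mean below that level. That count ran from 3 to 12 with 1 array left out: 3 or 4 fell without ApoE knockout replicate 2, 3 or 4 or double knockout replicate 2, 3 or 4, and 12 fell without ApoE knockout replicate 5. Of 5 measured erythroid markers 5 fell, with mean levels of 9.44 to 10.03 against 7.09 to 7.75, and of 10 neutrophil markers 7 fell, with mean levels of 6.44 to 7.76 against 5.87 to 6.16. Of 11 markers of effector and memory lymphocytes 6 fell and 1 rose, with mean levels of 6.38 to 6.93 against 5.84 to 6.31 and Gzma, Klrg1 and Ifng below the receptor gene level on average. Without ApoE knockout replicates 2, 3 and 4, limma called 4 of the B cell markers, 4 erythroid, 3 neutrophil, 2 effector and memory and 0 T cell markers lower, with 1 T cell marker at an unadjusted p under 0.05. Lymphatic endothelial markers, of which 1 of 6 fell, had mean levels of 7.57 to 8.16 against 7.42 to 7.84. Dendritic cell markers, of which 1 of 7 fell and 1 rose, had mean levels of 6.41 to 6.78 against 6.40 to 6.70. Of these, Flt3, Xcr1 and Ccl22 had means below the receptor gene level. The part of these cells in the differences of Ccr7, Cxcr5 and Lef1 was not tested, beyond the within-array values given further on.

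**Figure D2:**
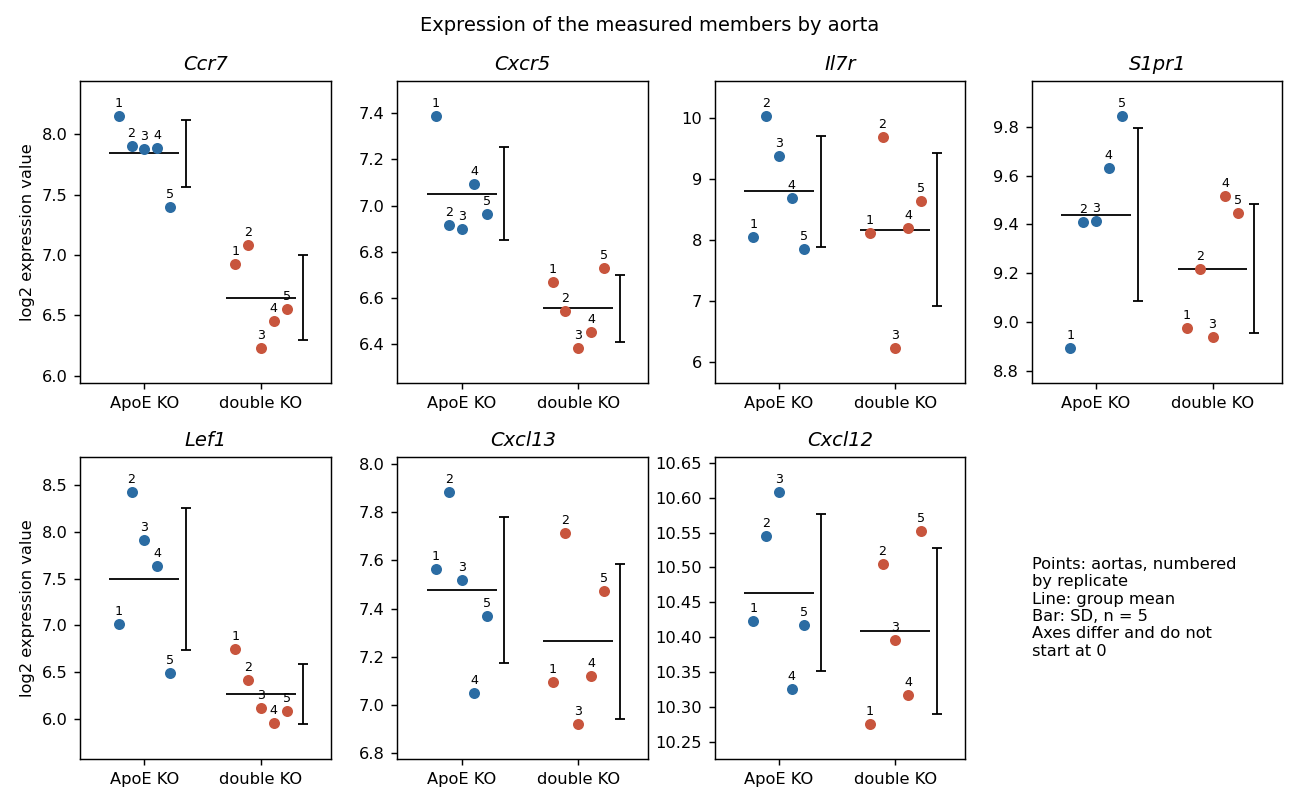
Log2 expression value of each measured member in each aorta, as points numbered by replicate, with a line at the group mean and a bar for the SD (n = 5 per group); each panel has its own axis, which does not start at 0. Ccr7 and Cxcr5 do not overlap between the groups, Lef1 overlaps in 1 pair of aortas, and Il7r, S1pr1, Cxcl13 and Cxcl12 overlap widely.

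Neither measured chemokine passed the threshold. Cxcl13, the follicular chemokine that CXCR5 binds, read 7.56, 7.89, 7.52, 7.05 and 7.37 in ApoE knockout aortas and 7.09, 7.71, 6.92, 7.12 and 7.47 in double knockout aortas. The ranges overlapped over most of their width, and replicate 2 was the highest aorta in each group. The difference was -0.21 (SE 0.17, 95% interval -0.59 to 0.17, limma adjusted p = 0.37). That interval includes the size of the Cxcr5 difference, and the difference between the 2 genes was not tested.

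Cxcl12, a chemokine made by stromal and endothelial cells, varied least among the members. It read 10.42, 10.55, 10.61, 10.33 and 10.42 in ApoE knockout aortas and 10.28, 10.50, 10.40, 10.32 and 10.55 in double knockout aortas. All 10 aortas lay between 10.28 and 10.61, with the groups interleaved. The difference was -0.06 (SE 0.08, 95% interval -0.23 to 0.12, limma adjusted p = 0.63). After each array was centred on the median of all its probe sets, which moved the median of all genes to -0.11, Cxcl12 passed at -0.26 (limma adjusted p = 0.043). Under that centring 5641 genes passed as lower and 1669 as higher, where 1671 and 5050 did so in the deposited values.

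S1pr1, the egress receptor, which endothelial cells also express, read 8.89, 9.41, 9.42, 9.63 and 9.85 in ApoE knockout aortas and 8.97, 9.22, 8.94, 9.52 and 9.45 in double knockout aortas. Replicate 1 of the ApoE knockout was the lowest aorta of all, and the groups overlapped. S1pr1 differed by -0.22 (SE 0.17, 95% interval -0.60 to 0.16, limma adjusted p = 0.35). The interval does not reach the sizes found for Ccr7 and Lef1. Of 10 blood endothelial markers 2 fell in limma (0 to 3 with 1 array left out, 2 to 6 at an unadjusted p under 0.05), and their mean level was 9.86 to 10.17 against 9.56 to 10.07.

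Il7r, the IL-7 receptor alpha chain, varied most. Its values were 8.05, 10.04, 9.38, 8.69 and 7.85 in ApoE knockout aortas and 8.13, 9.69, 6.23, 8.20 and 8.64 in double knockout aortas. The groups overlapped almost completely, and double knockout replicate 3 was far below the other 9 aortas. The difference was -0.63 (SE 0.58, 95% interval -1.90 to 0.65, limma adjusted p = 0.43), so that a change as large as that of Ccr7 in the same direction, or a smaller one the other way, lies within the interval. It was -0.14 without double knockout replicate 3, and it turned to 0.22 without ApoE knockout replicates 2, 3 and 4 (limma adjusted p = 0.87). Macrophage markers, of which 1 of 10 fell, had mean levels of 9.40 to 9.79 in ApoE knockout aortas and 9.02 to 9.91 in double knockout aortas. Within the double knockout, replicate 2 was highest and replicate 3 lowest both in these markers and in Il7r, and the part of these cells in the Il7r values was not tested.

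Lef1, a transcription factor of T cell development that binds TCF/LEF sites, differed by as much as Ccr7 but less evenly across the aortas. It read 7.02, 8.43, 7.91, 7.63 and 6.50 in ApoE knockout aortas and 6.75, 6.41, 6.12, 5.96 and 6.09 in double knockout aortas. The 3 highest aortas were ApoE knockout replicates 2, 3 and 4, the same arrays on which Dntt, Rag2, Arpp21 and Ccr9, but not Ptcra, were high, and ApoE knockout replicate 5 lay below double knockout replicate 1. Lef1 fell by 1.23 (SE 0.31, 95% interval -1.91 to -0.55, limma adjusted p = 0.013), or 2.35-fold. The call was lost without those 3 arrays (-0.49, limma adjusted p = 0.22) and without 4 arrays (-0.61, limma adjusted p = 0.10). Of the immature thymocyte genes, a list made after the data were seen, 5 of 6 were measured and 0 passed in limma (2 at an unadjusted p under 0.05), and 3 of the 5 (Rag2, Arpp21 and Ccr9) had means below the receptor gene level. Their mean level was 5.14 to 7.39 in ApoE knockout aortas and 5.24 to 6.11 in double knockout aortas. Of 4 genes of thymic epithelium, 3 (Foxn1, Psmb11 and Prss16) had means below the receptor gene level, with list means of 5.37 to 5.61 against 5.50 to 5.73. The part of thymocyte RNA in the Lef1 difference was not tested beyond leaving out these arrays.

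**Figure D3:**
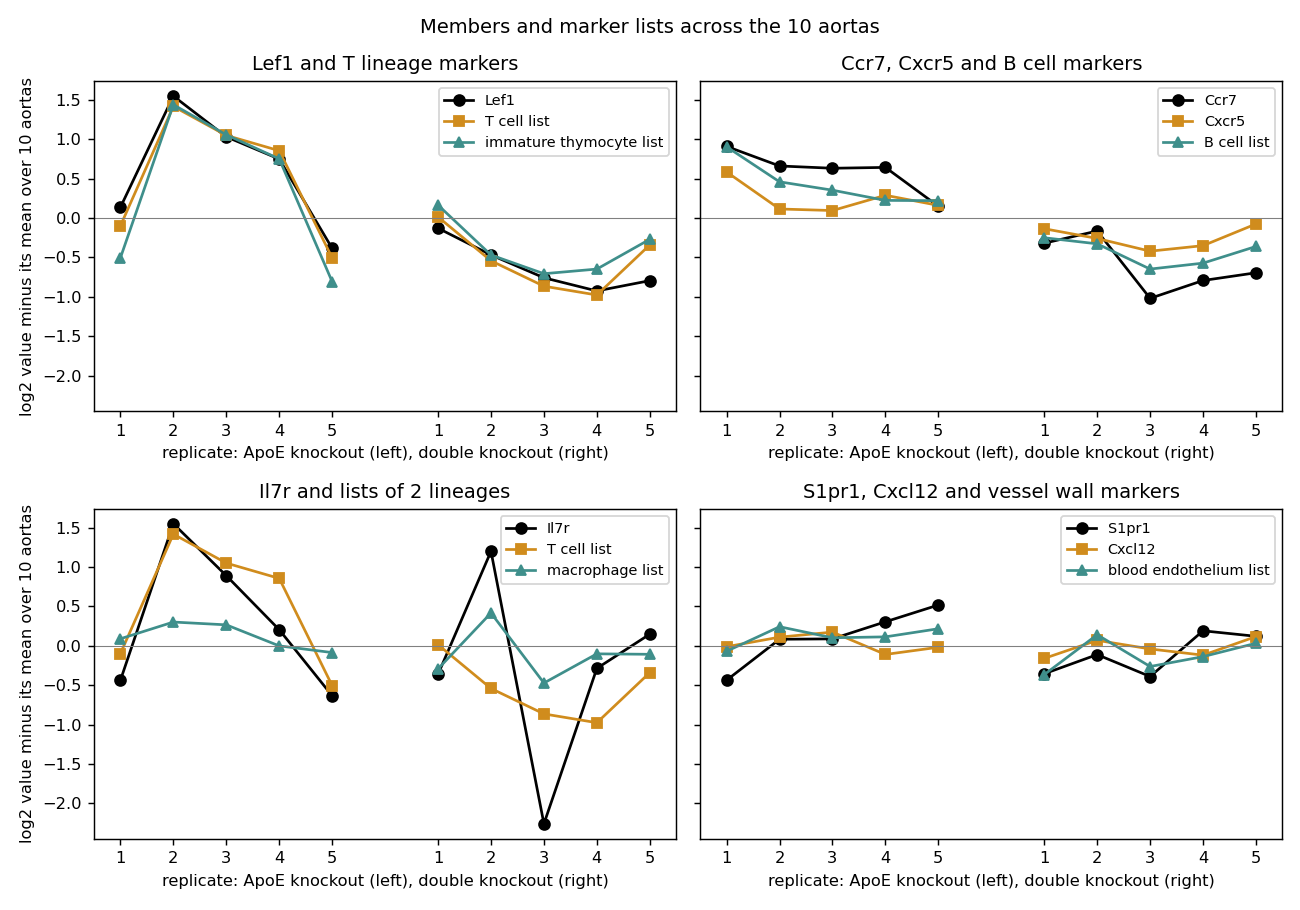
Log2 value of members and of the mean of marker lists in each aorta, minus the mean of each over the 10 aortas, with ApoE knockout replicates 1 to 5 on the left of each panel and double knockout replicates 1 to 5 on the right. Lef1 and the T cell and immature thymocyte lists are highest in ApoE knockout replicates 2, 3 and 4, whereas Ccr7, Cxcr5 and the B cell list are highest in replicate 1, and Il7r is lowest in double knockout replicate 3.

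The other genes of the same pathways were counted from 7 lists, in which 78 genes other than the members were measured. Of these, 18 were lower, 7 were higher and 53 did not pass, with a median of -0.09. Over all 22180 genes, 7.53% passed as lower and 22.8% as higher, with a median of 0.10. These are the shares to set beside the count of each list below. Around Ccr7, in a list of lymph node entry, 5 of 12 were lower and 1 was higher. The integrin chains Itgal (-0.92), Itga4 (-0.77) and Itgb7 (-0.53), which lymphocytes use to adhere to vessels, were lower, as were Icam1 and Icam2 (-0.39 and -0.45), which encode ligands of the Itgal integrin on vessels. Madcam1, the ligand of the integrin that Itga4 and Itgb7 form, was higher by 0.46, from 5.58 to 6.05, around the receptor gene level. Limma adjusted p-values of these 6 genes ran from 0.0017 to 0.036. Without ApoE knockout replicates 2, 3 and 4, 0 of the 12 were lower and 1 was higher, Madcam1 (0.47, limma adjusted p = 0.034). Itgal, Itga4 and Itgb7 were then at -0.56, -0.55 and -0.57 (limma adjusted p = 0.23, 0.16 and 0.071).

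Around S1pr1, 4 of 15 genes were lower and 4 were higher. Over all genes 7.53% passed as lower and 22.8% as higher, so the count of higher genes lies near that share. Cd69, an activation antigen that removes S1PR1 from the surface, was lower (-1.50, limma adjusted p = 0.0018), by less without ApoE knockout replicates 2, 3 and 4 (-0.88, limma adjusted p = 0.047) and past the threshold no longer without 4 arrays (-0.87, limma adjusted p = 0.079). Mfsd2b, a sphingosine-1-phosphate exporter of red cells and platelets, was lower (-0.86, limma adjusted p = 0.00097). Klf2, a transcription factor that drives S1pr1 in T cells and acts in endothelium, was also lower (-0.59, limma adjusted p = 0.017). Sphk1, a kinase that makes sphingosine-1-phosphate, was higher by 0.54 (limma adjusted p = 0.0051). Apom, its plasma carrier, was higher by 0.46 (limma adjusted p = 0.014) at a mean below the receptor gene level, and its call was lost after quantile normalization (0.21, adjusted p = 0.23). S1pr2, another receptor, and Sphk2, the second kinase, were higher by 0.26 and 0.28. The count of higher genes was 2 without ApoE knockout replicate 4 or double knockout replicate 5.

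Around Cxcl12, 3 of 6 genes were lower and 0 higher. They were the chemokine-cleaving protease Dpp4 (-0.67) and the receptor desensitizers Arrb2 (-0.46) and Grk6 (-0.42). Cxcr4, the receptor of CXCL12, differed by -0.60 without passing (limma adjusted p = 0.14), and by 0.01 without ApoE knockout replicates 2, 3 and 4. Around Cxcl13 and Cxcr5, 1 of 16 genes was lower and 2 were higher, both below the shares over all genes. Ltb, a lymphotoxin subunit that organizes lymphoid tissue, was lower (-0.60, limma adjusted p = 0.0018). Lta, the partner subunit, was higher by 0.54 (limma adjusted p = 0.0068) at a mean below the receptor gene level, and the call was lost after quantile normalization (0.30, adjusted p = 0.080).

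Around Il7r, 1 of 9 genes was lower, the signal transducer Stat5b (-0.35, limma adjusted p = 0.0096), and 0 were higher. Around Lef1, 4 of 10 genes in a list of naive T cell transcription were lower and 0 higher: Bcl11b (-1.22), Ikzf1 (-0.72), Klf2 and Ets1 (-0.40). With Lef1 included, 5 genes of this list were lower, and 2 to 7 were with 1 array left out, the lowest count when ApoE knockout replicate 2, 3 or 4 or double knockout replicate 3, 4 or 5 was the array left out. In the same list Themis (-1.28) and Satb1 (-1.14), both T lineage genes, missed the threshold at adjusted p-values of 0.13 and 0.091 in limma. Without ApoE knockout replicates 2, 3 and 4, 0 of the 10 genes other than Lef1 were lower. Bcl11b, Ikzf1, Klf2 and Ets1 were then at -0.28, -0.27, -0.63 and -0.16 (limma adjusted p = 0.48, 0.57, 0.12 and 0.50). Among 12 partners and targets of TCF/LEF factors 1 was lower, the corepressor Tle3 (-0.19), and 0 were higher. This count and that around Il7r lie near the 7.53% of all genes that passed as lower. Without ApoE knockout replicates 2, 3 and 4, 3 of the 78 genes were lower and 1 was higher, where 1.2% of all genes passed as lower. Without double knockout replicate 3, 11 of the 78 were lower.

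**Figure D4:**
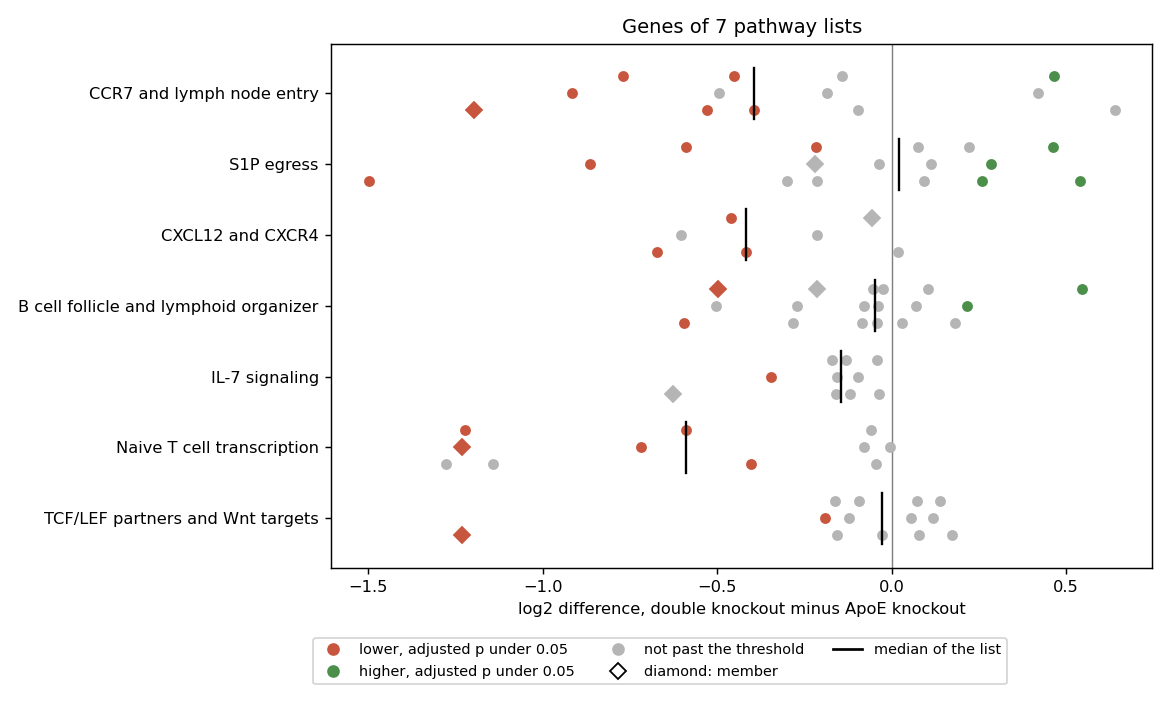
Difference between the groups (double knockout minus ApoE knockout, log2) for every measured gene of 7 pathway lists, coloured by whether it passed a limma adjusted p of 0.05, with diamonds for the members and a vertical line at the list's median. The naive T cell transcription list has the lowest median (-0.59), and the TCF/LEF, B cell follicle and S1P lists lie around 0 (-0.03, -0.05 and 0.02).

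To set each member beside cells that can express it, its log2 value minus the mean of a marker list was taken within each array and compared between the groups by a two-sided exact permutation test over 252 assignments, whose smallest p is 0.0079. Such a value shows unequal change only. None of 11 pairs passed after Benjamini-Hochberg adjustment. Lef1 against T cell markers ran from -0.25 to 0.09 in ApoE knockout aortas and from -0.60 to -0.04 in double knockout aortas. Its means were -0.08 ± 0.13 and -0.22 ± 0.23 (ApoE knockout, then double knockout, each SD, n = 5), and the exact p was 0.28. Ccr7 against the same markers differed by -0.11 (exact p = 0.77) with a wide spread in the ApoE knockout (0.27 ± 0.75), and by -0.89 without ApoE knockout replicates 2, 3 and 4.

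Against B cell markers, Cxcr5 differed by 0.37, from 0.06 ± 0.18 to 0.42 ± 0.09 (SD, n = 5). The groups did not overlap, which gives the smallest exact p of 0.0079 (adjusted p = 0.087), and Cxcr5 was higher relative to these markers in the double knockout without passing the adjusted threshold. Ccr7 against B cell markers differed the other way, by -0.33 (exact p = 0.048, adjusted p = 0.13). Il7r and S1pr1 against T cell markers differed by 0.46 and 0.86 (exact p = 0.44 and 0.10), and S1pr1 against blood endothelial markers by 0.02 (exact p = 0.89). Cxcl12 differed by -0.22 relative to fibroblast markers and by -0.30 relative to smooth muscle markers (exact p = 0.040 and adjusted p = 0.13 in each). Neither passed the adjusted threshold, and the difference of Cxcl12 itself was -0.06. Relative to blood endothelium, Cxcl12 differed by 0.18 (exact p = 0.064). Cxcl13 relative to fibroblast markers differed by -0.38 (exact p = 0.079). Fibroblast and smooth muscle markers each had 3 genes that were higher and 0 that were lower, of 10 and 9, where 22.8% of all genes passed as higher. After centring on array medians, however, 1 of all 127 marker genes was higher. Higher smooth muscle genes numbered 0 to 4 with 1 array left out, with 0 in limma without ApoE knockout replicate 4 (4 at an unadjusted p under 0.05) and 1 without ApoE knockout replicate 2 or 3 or double knockout replicate 4. Without ApoE knockout replicates 2, 3 and 4 together limma called 0, and 0 were at an unadjusted p under 0.05.

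**Figure D5:**
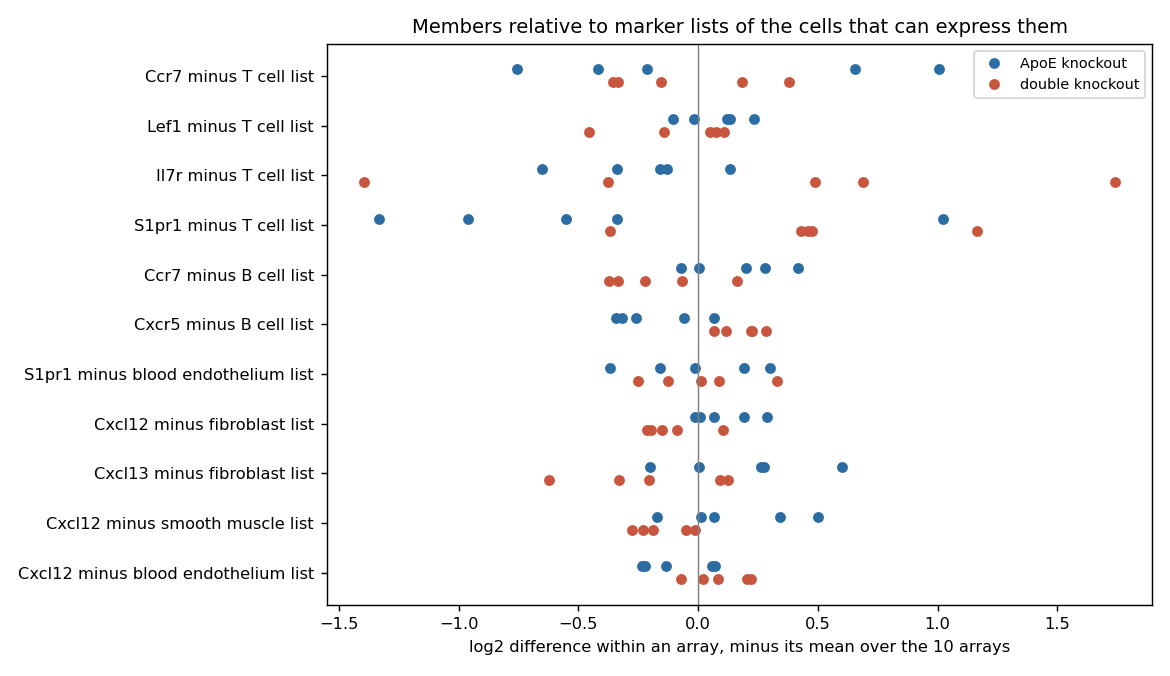
Log2 value of a member minus the mean of a marker list within each array, minus the mean of that quantity over the 10 arrays, for 11 pairs of member and list; each point is 1 aorta. The groups separate for Cxcr5 against the B cell list and overlap for the other 10 pairs.

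The genes whose profile over the 10 aortas was nearest to a called member were found by the root mean square difference of log2 values, each gene centred on its own mean. For Ccr7 they were Cd7 (0.13), Fcmr (0.18) and Itga6 (0.18). Cd7 and Fcmr encode lymphocyte surface proteins, and Itga6 an integrin chain. For Lef1 they were Bcl11b (0.17), Cdca7 (0.19) and Ly6d (0.22). Bcl11b is a transcription factor of early T cells, and Ly6d a surface protein of lymphoid precursors. For Cxcr5, whose profile spans a smaller range, they were Klk1b24 (0.098), Mtif3 (0.11) and Eif4e3 (0.11). These 9 genes were all lower in the double knockout, with differences of -1.34 to -0.40, and were chosen for their likeness to members that differed between the same groups. Without ApoE knockout replicates 2, 3 and 4, 2 of the 9 passed, Cd7 (-1.16, limma adjusted p = 0.030) and Fcmr (-1.43, limma adjusted p = 0.013). Itga6 was then at -0.90 (limma adjusted p = 0.064), the genes nearest to Lef1 at -0.28 to -0.72 (limma adjusted p = 0.19 to 0.48) and those nearest to Cxcr5 at -0.44 to -0.50 (limma adjusted p = 0.054 to 0.11).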

How the data were processed

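Aortic RNA of 5 ApoE knockout and 5 ApoE/IL-17 double knockout mice was measured, grouped by the sample titles. The authors deposited 1 log2 value per probe set and array; the submitters' processing notes name limma but neither its version nor its use. The base of 2 was inferred from the range of values, and the sources used here give no background correction or normalization. No further normalization was applied, and array number limits the precision.

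Of 41345 probe sets, 23521 had 1 symbol, 1814 several and 16010 are unnamed here. For 1082 genes with several probe sets the highest mean was used. All 22180 genes were fitted with limma 3.58.1 (lmFit, eBayes, two-sided) in R 4.3.3, by group alone, with Benjamini-Hochberg adjustment at 0.05. Fits had 5 arrays per group unless stated. Marker comparisons used exact permutation. On simulated data with 200 of 22180 genes changed, 88% of changes of 1 and 100% of changes of 2 (log2) were recovered with 0 wrong signs and 12 false calls.

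Members and gene lists were chosen with earlier results of these data known. Other genes named are, by rule, the targeted genes, up to 4 called and 2 uncalled genes with the smallest p of each pathway list, up to 4 called T and B cell markers and 2 of each other marker list, and the 3 profiles nearest to each called member. Other genes were named after their values were seen. Lists of immature thymocytes and thymic epithelium and the settings without 3 or 4 arrays were added after seeing the data. Alternatives were quantile normalization, centring on array medians, a filter at the receptor gene level, the mean of probe sets, a trended robust prior, weights per array, a block for the replicate number and leaving out each array. Promoter sequences are from RefSeq, build GRCm38.p6.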

Additional observations from a re-analysis of the deposited data

Results flagged for a closer look

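In 212 groups of 5 values, a sample was singled out where its gap to the nearest other sample, divided by the range of the group, was above 0.71, which chance gives in about 1 in 20 groups. It held in 7 of the 212 groups, a smaller share than that. No member met this. Bcl11b, the gene whose profile was nearest to Lef1, stood out in double knockout replicate 1 (6.92, next 6.23, ratio 0.839), as did the thymocyte gene Arpp21 (5.87, next 5.21, ratio 0.765) and Prss16 of thymic epithelium (5.29, next 5.04, ratio 0.747). Double knockout replicate 2 was high in Dpp4, the protease that cleaves CXCL12 (8.20, next 7.55, ratio 0.868), and in the macrophage gene Cd163 (7.63, next 7.31, ratio 0.829). The B cell marker Cd79b was high in ApoE knockout replicate 1 (8.998, next 8.38, ratio 0.766), the aorta that was also highest in Ccr7 and Cxcr5. Psmb11, at the level of background, was high in ApoE knockout replicate 2 (5.25, next 5.04, ratio 0.755).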

How the results depend on the processing

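Ccr7, Cxcr5 and Lef1 stayed lower and past the threshold under quantile normalization, centring, the filter, the other probe set rule, prior and weights, the block and each array left out in turn: over all of these Ccr7 ranged from -1.40 to -1.09, Cxcr5 from -0.70 to -0.41 and Lef1 from -1.48 to -0.998. The settings without ApoE knockout replicates 2, 3 and 4, or without these and double knockout replicate 1, were chosen after seeing the data and test fewer arrays by construction. Without 3 arrays, Lef1 was -0.49 and Il7r 0.22. Without 4, Ccr7 was -1.20, Lef1 -0.61, Cxcr5 -0.65, Il7r 0.24 and Cxcl12 0.022. In limma 0 members passed without 4 arrays, where 3 passed with all arrays. At an unadjusted limma p under 0.05 there were 3 without 4 arrays, a threshold for which the share of all genes is not given here. In the same 2 settings 267 and 185 genes were lower and 942 and 611 higher over the array, 3 and 1 pathway genes lower and 1 and 0 higher, and 14 and 11 marker genes lower and 1 and 0 higher. With all arrays, 37 of 127 marker genes were lower and 12 higher. Ccr7 against T cell markers was -0.89 without 3 arrays. Values that reversed there were, without 3 and without 4 arrays where 2 are given, Cxcr4 0.011, Satb1 0.013, Arpp21 0.15, Themis 0.28 and 0.10, Dntt 0.57 and 0.35, Rag2 0.58 and 0.46, Clec7a 0.40 and 0.35, Slamf7 0.58 and 0.54, and Il1a 0.67 and 0.64.

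Centring arrays on their medians gave 5641 genes lower and 1669 higher, 39 pathway genes lower and 3 higher, 62 marker genes lower and 1 higher, and -0.26 for Cxcl12, which then passed; Tnfrsf11a (-0.023), Ctnnb1 (-0.031), Ptcra (-0.067), Prss16 (-0.12) and Ccl25 (-0.13) reversed. Quantile normalization gave 2479 genes lower and 1982 higher and 4 pathway genes higher; Il17a (-0.019), Cyp7b1 (-0.047), Ptcra (-0.015), Foxn1 (-0.0015), Prss16 (-0.18) and Ccl25 (-0.096) reversed. With genes above the receptor gene level alone, 2013 were higher, with 4 pathway genes. The cause of these changes was not tested.

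With 1 array left out, 11 to 20 pathway genes were lower (11 without double knockout replicate 3) and 4 to 8 higher (4 without ApoE knockout replicate 4), and 7 to 12 marker genes were higher (7 without ApoE knockout replicate 3). Ccr7 against T cell markers ran from -0.31 to 0.13, turning without ApoE knockout replicate 1 or 5, and S1pr1 against blood endothelium from -0.070 to 0.097. Cxcr5 against B cell markers ran from 0.33 to 0.43 and Cxcl12 against smooth muscle from -0.38 to -0.21, and without ApoE knockout replicate 5 each passed (0.40 and -0.38, adjusted exact permutation p = 0.044). Slamf7 ran from -0.47 to 0.21 and Il1a from -0.65 to 0.017, turning without ApoE knockout replicate 2 or double knockout replicate 3.

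The labels do not say whether samples with the same replicate number share a litter or batch. Deviations of same-numbered arrays correlated by 0.26, 0.20, -0.13, 0.06 and 0.14, and 3 of 5 numbers matched best with their own. These values do not settle whether the numbers pair the samples. With the replicate number as a block, 6594 genes passed, against 6721 without, 82 of 89 named genes had the same call, and no member changed its call. For marker pairs the block allows no p below 0.0625.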

Other observations

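Il7r had the widest spread of the members, and its nearest profiles were looked up after its values were seen. By the same root mean square measure over 10 aortas they were Clec7a (0.25), the receptor dectin-1 of myeloid cells, Slamf7 (0.29), a receptor of activated leukocytes, and Il1a (0.29), the cytokine IL-1 alpha. Clec7a read 9.30 to 11.49 in ApoE knockout aortas and 8.25 to 10.85 in the double knockout, Slamf7 7.90 to 9.75 and 6.88 to 9.59, and Il1a 5.61 to 8.13 and 4.96 to 7.60. Each was highest in ApoE knockout replicate 2 and lowest in double knockout replicate 3, as Il7r was, and the group differences did not pass (-0.55, -0.20 and -0.34, limma adjusted p = 0.42, 0.77 and 0.65). These genes were picked for their likeness to Il7r on these arrays.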
